A study of Mus musculus with 72 samples.

Results

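The endogenous opioid peptide precursors are 4 genes, Penk (proenkephalin), Pdyn (prodynorphin), Pomc (proopiomelanocortin) and Pnoc (prepronociceptin). They were chosen by symbol, without regard to case, from the gene names that accompany the identifiers of the count table, and each symbol led to 1 row among the 55401 genes counted. The rule itself uses no measured value. All 4 genes passed the filter on low counts in every fit.

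Opioid peptides are cut from large secreted precursors. Prohormone convertases cleave the precursor at paired basic residues inside the secretory pathway, carboxypeptidase E trims the basic residues that remain, and the finished peptides are released with the cell's other transmitters. Enkephalins from Penk act mainly at delta and mu receptors, dynorphins from Pdyn at kappa receptors, β-endorphin from Pomc at mu receptors, and nociceptin from Pnoc at the nociceptin receptor, which binds the classical opioids poorly. In the adult rodent forebrain Penk and Pdyn are known for strong expression in separate sets of striatal projection neurons, Pomc for a small population in the arcuate nucleus and for the pituitary, and Pnoc for GABA neurons.

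RNA was sequenced from a brain hemisphere of C57Bl/6NTac mouse pups exposed to morphine or saline in 3 windows, with 72 libraries in all. In the PND1 window the dam carried an osmotic minipump that delivered morphine at 10 mg/kg per day (10 libraries, 4 labelled female and 6 male) or saline (14 libraries, 7 female and 7 male), and tissue was taken from the newborns 6 h after a litter was discovered, on day 1. In the PND14 window pups were injected only after birth, 2 times a day until day 14, with morphine at 10 mg/kg or with saline, and were dissected 6 h after the last injection. In the 3-Tri (3-trimester) window pups had both the minipump and the injections. Each drug in the PND14 and 3-Tri windows had 12 libraries, 6 labelled female and 6 male. No litter was named for any pup, and in the PND14 and 3-Tri windows the number that opens the sample name took 2 values in each drug, none shared between drugs, so that what that number stands for and the drug cannot be told apart. Where pups were littermates, p-values measure the spread between pups rather than between litters. The comparisons ask whether exposure in a window changed the precursors' transcripts and how far they differed between saline pups of different ages.

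All precursors except Pnoc carry the opioid core Tyr-Gly-Gly-Phe, and nociceptin opens with Phe-Gly-Gly-Phe. Coding sequences of GRCm38 with the GENCODE M21 models held 7 Tyr-Gly-Gly-Phe copies in Penk, 6 followed by Met and 1 by Leu, 3 in Pdyn, all followed by Leu, and 1 in Pomc, followed by Met. Every copy followed a pair of basic codons. The stretches below are shown because these repeats are what makes each transcript an opioid precursor. They read 5′ to 3′ on the coding strand, from the paired basic codons before the core, with the 12 bases of each core in capitals. The Penk stretch shows a pair of neighbouring cores, the second Penk stretch the copy that gives Leu-enkephalin, the Pdyn stretch dynorphin A, the Pomc stretch the start of β-endorphin and the Pnoc stretch nociceptin.
Penk, chr4:4134298-4134354, minus strand, exon 2: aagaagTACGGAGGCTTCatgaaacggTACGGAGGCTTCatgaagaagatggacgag
Penk, chr4:4133935-4133961, minus strand, exon 2: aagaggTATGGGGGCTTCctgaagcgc
Pdyn, chr2:129688094-129688150, minus strand, exon 4: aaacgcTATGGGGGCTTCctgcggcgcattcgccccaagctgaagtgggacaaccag
Pomc, chr12:3960367-3960423, plus strand, exon 4: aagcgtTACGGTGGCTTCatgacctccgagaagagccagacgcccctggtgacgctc
Pnoc, chr14:65404842-65404898, minus strand, exon 3: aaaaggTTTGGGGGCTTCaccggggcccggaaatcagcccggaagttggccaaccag
The 11 Tyr-Gly-Gly-Phe cores were written in 8 different codon spellings. The Leu-enkephalin core of Penk and the dynorphin A core of Pdyn share 1 spelling, as their stretches show.

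Penk (ENSMUSG00000045573.9) lies at chr4:4133531-4138819 with 1634 bp of exon, Pdyn (ENSMUSG00000027400.11) at chr2:129686565-129699844 with 2887 bp, Pomc (ENSMUSG00000020660.6) at chr12:3954951-3960642 with 1318 bp and Pnoc (ENSMUSG00000045731.6) at chr14:65400673-65425472 with 2157 bp, in GRCm38. An antisense transcript, A830012C17Rik, overlaps Penk in exons, and the strand setting of the counting is in none of the sources read, so reads of the pair may not be fully separated. In CPM (counts scaled to a common library depth, with trimmed-mean factors), A830012C17Rik stayed well under Penk, at 8.70 to 15.2 CPM in PND14 saline libraries and 1.83 to 3.16 CPM in PND1 saline libraries. RefSeq lists a Pomc pseudogene, Pomc-ps1, and reads that match both copies could have been lost in counting.

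Libraries held 3113919 to 27333125 counts, with 20742862 to 27333125 at PND1, and 2 libraries fell under 5000000 counts (PND14 morphine female replicate 4 and 3-Tri saline male replicate 1). Xist and Ddx3y went against the labelled gender in 4 of 24 PND1, 0 of 24 PND14 and 12 of 24 3-Tri libraries, so values by gender label below are values of labels. Some PND1 libraries carried both genes. Morphine female replicate 4, counted as against its label, had Xist at 94.9 CPM beside Ddx3y at 48.1 CPM. Morphine male replicate 6 (13.5 beside 68.1 CPM) and saline male replicate 11 (10.3 beside 56.6 CPM) were counted as matching theirs. So was morphine female replicate 3 (400 beside 8.64 CPM). The lower of the pair was 0.177 CPM or less at PND14 and 3-Tri. The source of the second gene's reads was not tested. The tissue carried cortical, striatal, interneuron and hypothalamic markers in every library. Hindbrain and spinal cord markers (such as Hox genes and Slc6a5) summed to 0.773 to 157 CPM at PND1, against 0.512 to 10.3 CPM at PND14 and 0.195 to 14.2 CPM at 3-Tri, and were uneven within PND1.

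Penk was the most abundant of the 4 transcripts per exon length in every window, and Pomc the least. CPM were divided by exon length, the bases covered by all annotated exons of a gene, for this comparison. In saline pups Penk stood at 12.9 ± 2.28 CPM per kb at PND1 (SD, n = 14), 62.9 ± 6.26 at PND14 (n = 12) and 62.5 ± 2.55 at 3-Tri (n = 12). Pdyn stood at 4.08 ± 0.663, 12.4 ± 1.08 and 12.8 ± 1.29 CPM per kb in the same order. Pnoc held 6.15 ± 0.685, 5.82 ± 0.637 and 6.75 ± 1.09 CPM per kb, and Pomc 0.899 ± 0.253, 1.33 ± 0.427 and 1.324 ± 0.322. Among the 4, Penk made up 76.3% of the summed CPM per kb at PND14 and 53.6% at PND1. The order of Pdyn and Pnoc turned over between the ages: Pdyn lay above Pnoc per kb in 12 of 12 PND14 and 12 of 12 3-Tri saline libraries and in 0 of 14 PND1 saline libraries. The count at PND1 depends on the exon lengths. In CPM, Pdyn lay above Pnoc in PND1 saline female replicate 1 (14.7 against 14.1) and replicate 2 (13.1 against 12.1).

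**Figure D1:**
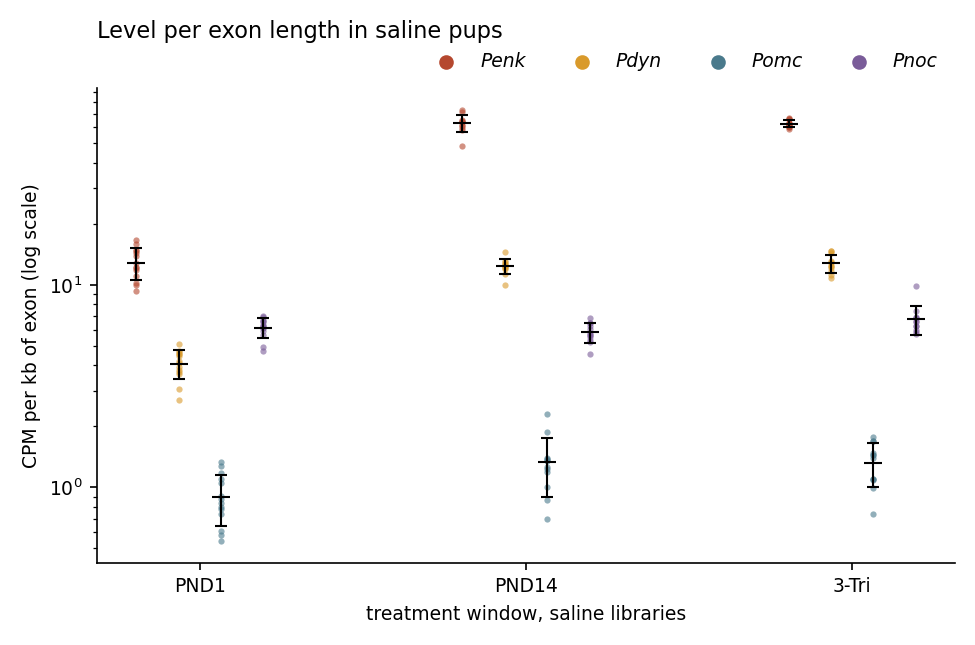
Levels per exon length in saline libraries, in CPM per kb of exon on a log scale, for the 3 treatment windows. Points are libraries and bars the mean ± SD (n = 14 at PND1, 12 at PND14 and 12 at 3-Tri). Penk lies highest and Pomc lowest in each window, and Pdyn lies under Pnoc at PND1 and over it at PND14 and 3-Tri.

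From the younger to the older saline pups, Penk and Pdyn rose several-fold in level, Pomc rose by a smaller step and Pnoc did not pass the test. These comparisons set saline pups of different ages side by side. The groups also differ in how saline was given (a dam's minipump or injections), in cohort, in depth and in hindbrain markers, which cannot be told apart from age here. In its 3-trimester schedule the paper moved litters of dams with minipumps to surrogate dams within hours of birth, so rearing may differ too. Penk, the source of the enkephalins, had a lowest, median and highest value of 79.4, 104 and 119.6 CPM in the 12 PND14 saline libraries, against 15.2, 20.4 and 27.2 CPM in the 14 PND1 saline libraries. The groups did not overlap, and the lowest PND14 library was 2.92 times the highest PND1 library. How many of all genes were separated in this way was not counted, here or for Pdyn below. The log2 fold change was 2.29 (SE 0.066, 4.90-fold, adjusted p = 5.88e-44, edgeR's quasi-likelihood test with Benjamini-Hochberg adjustment over 22010 genes). Only 585 genes had a higher log2 fold change in this comparison.

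Pdyn, the source of the dynorphins, had 28.7, 35.7 and 41.8 CPM in PND14 saline libraries, against 7.81, 11.97 and 14.7 CPM in PND1 saline libraries. The lowest PND14 library was 1.96 times the highest PND1 library. The log2 fold change was 1.61 (SE 0.059, 3.04-fold, adjusted p = 3.92e-37), and 1447 genes had a higher one. Pomc, whose product is cut into β-endorphin, ACTH and melanocortins, had 0.918, 1.72 and 3.03 CPM in PND14 saline libraries, against 0.713, 1.13 and 1.75 CPM in PND1 saline libraries. The groups overlapped, and 6 of 12 PND14 libraries lay above all PND1 libraries. Pomc rose by 0.59 on the log2 scale (SE 0.15, adjusted p = 0.000328). Its raw counts were small, 7 to 39 in PND14 saline libraries and 18 to 49 in PND1 saline libraries, which limits the precision of each single library.

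Pnoc, the source of nociceptin, had 9.87, 12.4 and 14.8 CPM in PND14 saline libraries, against 10.1, 13.5 and 15.1 CPM in PND1 saline libraries. The groups overlapped over nearly their whole range. The log2 fold change was -0.073 (95% confidence interval -0.20 to 0.052, adjusted p = 0.269). So 3 of the 4 precursors passed the test, all higher, where 84.9% of all genes tested passed it, 41.7% as higher and 43.2% as lower at PND14. A share of called genes of that size makes the call itself unremarkable for the members, and the size of the change carries the description: Penk stood above 97.3% of genes, Pdyn above 93.4%, Pomc above 75.1% and Pnoc above 47.2%.

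The 3-Tri saline pups, injected with saline to the same day after a saline pregnancy, gave the same picture against PND1 with other libraries, although the PND1 libraries are shared. Penk had 96.3, 102 and 109 CPM in 3-Tri saline libraries (log2 fold change 2.28, SE 0.066, adjusted p = 8.61e-44). Pdyn had 31.2, 36.5 and 42.6 CPM (1.66, SE 0.059, adjusted p = 4.86e-38). Pomc had 0.969, 1.86 and 2.32 CPM (0.54, SE 0.15, adjusted p = 0.000927), and Pnoc 12.4, 14.2 and 21.2 CPM (0.098, SE 0.062, adjusted p = 0.134). Across this comparison 85.1% of genes passed the test, 42.1% as higher and 43.0% as lower. Between 3-Tri and PND14 saline pups, of the same age, 0% of genes passed (0 of 22010 by edgeR and 4 by DESeq2, with 723 at an unadjusted p under 0.05), and the interval for Penk ran from -0.14 to 0.12 on the log2 scale.

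**Figure D2:**
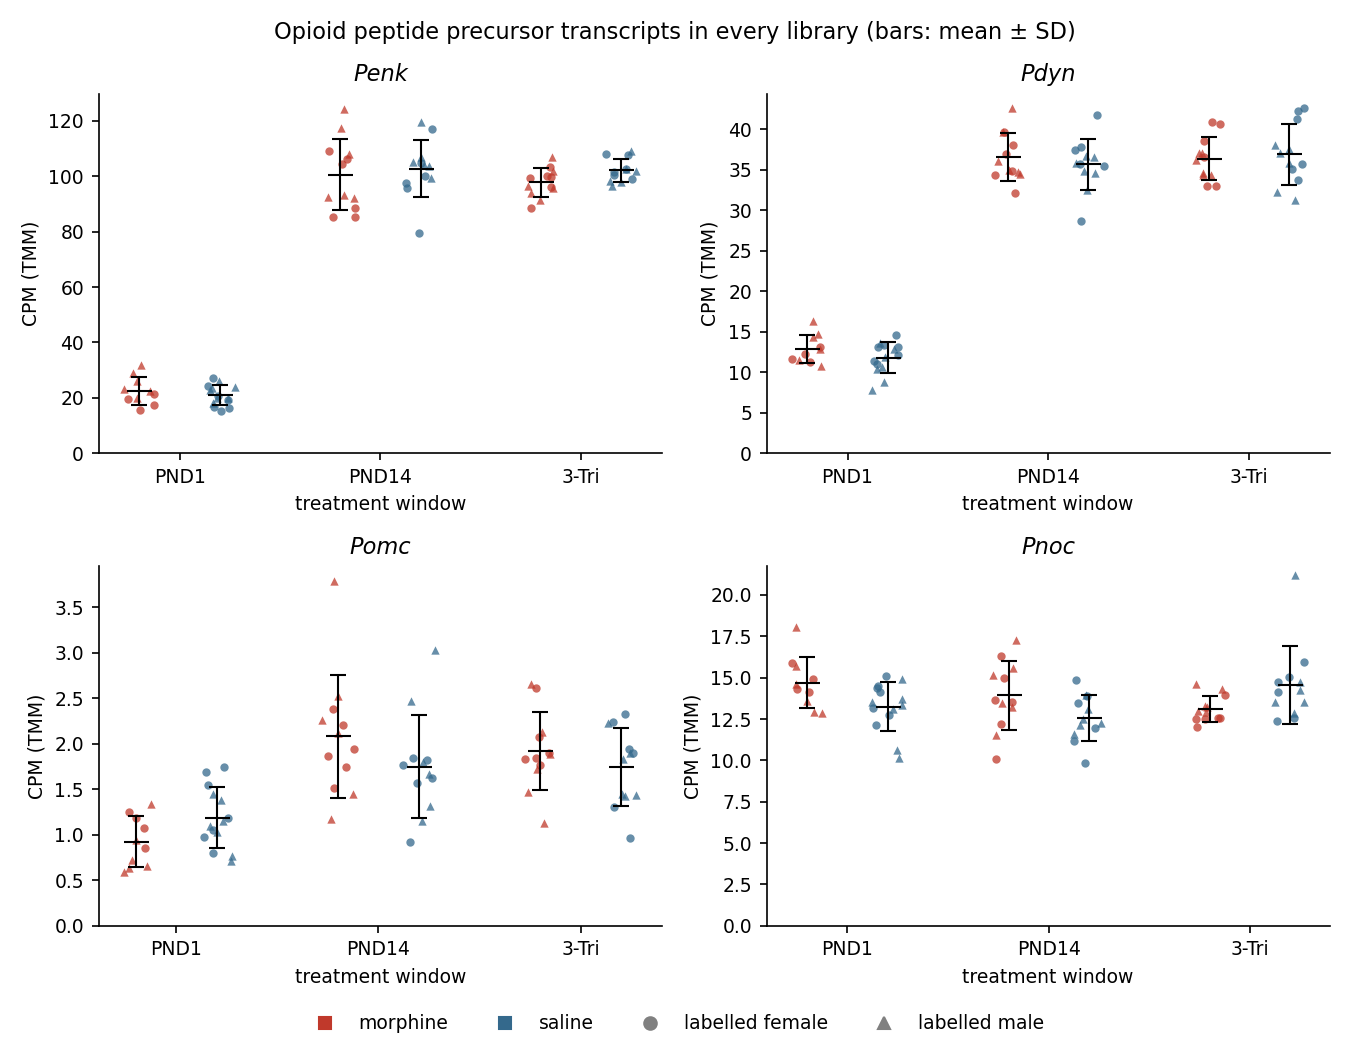
CPM of each precursor in all 72 libraries by treatment window, with morphine in red and saline in blue, circles for libraries labelled female and triangles for male. Bars give the mean ± SD over the libraries of a window and drug. The step from PND1 to PND14 and 3-Tri separates Penk and Pdyn completely, and how many of all genes it separates was not counted. The drugs overlap in every panel.

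Cell type markers moved with age as well, and their part in these changes was not tested. In a whole hemisphere, fewer cells of a type and less RNA per cell cannot be told apart. Over all genes 84.9% passed the test between PND14 and PND1 saline pups, 41.7% as higher and 43.2% as lower, so the marker counts are described only. Of the 10 striatal neuron markers, 8 rose and 1 fell, and their summed level was 607 to 780 CPM in PND14 saline libraries, against 274 to 388 CPM in PND1 saline libraries. Of the 9 GABA interneuron markers, 6 rose and 2 fell, and of the 8 cortical neuron markers 5 rose and 3 fell. The hypothalamic markers summed to 74.7 to 93.3 CPM in PND14 saline libraries, against 64.0 to 99.9 CPM in PND1 saline libraries, most of it from Agrp, with 4 of 9 tested higher and 3 lower. Pituitary markers summed to 0.982 to 2.62 CPM in PND14 saline libraries, against 0.676 to 1.44 CPM in PND1 saline libraries. The pituitary hormone gene Prl was at 0 in 23 of 24 PND14 libraries and in 20 of 24 PND1 libraries, Gh in 23 and 21 of 24, and Fshb in all of them. In contrast, Lhb was at 0 in 0 of 24 libraries of either window, and Tshb in 1 of 24 PND14 and 0 of 24 PND1 libraries. Only 2 of the 8 pituitary markers passed the filter, and 2 rose. Of the cerebellar markers 2 rose and 2 fell of 5, and all 15 hindbrain and spinal cord markers tested fell.

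The machinery that handles the precursors moved mostly upwards with age. All 7 precursor processing genes rose in PND14 saline pups relative to PND1 saline pups, with a median log2 fold change of 1.40 against -0.017 over all genes, of which 84.9% passed the test, 41.7% as higher and 43.2% as lower. Pcsk2, prohormone convertase 2, stood at 271 ± 11.2 CPM in PND14 saline libraries and 67.3 ± 2.53 CPM in PND1 saline libraries (SD, n = 12 and 14; log2 fold change 2.01, SE 0.023, edgeR adjusted p = 2.01e-67). Pcsk1, prohormone convertase 1/3, stood at 47.3 ± 3.69 CPM in PND14 saline libraries and 6.97 ± 1.14 CPM in PND1 saline libraries (2.77, SE 0.057). Cpe, carboxypeptidase E, stood at 1642 ± 112 CPM in PND14 saline libraries and 617 ± 27.7 CPM in PND1 saline libraries (1.41, SE 0.035). All of these genes act on many neuropeptide precursors besides the opioid ones.

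The receptors did not move together, with 3 of 4 higher and 1 lower against the same shares over all genes. Oprd1, the delta receptor, rose by 2.83 on the log2 scale (SE 0.081), with 14.3 ± 1.99 CPM in PND14 saline libraries and 2.01 ± 0.389 CPM in PND1 saline libraries (SD, n = 12 and 14). Oprm1, the mu receptor and the main target of morphine, rose by 1.82 (SE 0.049), with 75.9 ± 4.03 CPM in PND14 saline libraries and 21.6 ± 2.32 CPM in PND1 saline libraries. Oprk1, the kappa receptor, rose by 1.253 (SE 0.070), with 12.3 to 17.7 CPM in PND14 saline libraries and 4.68 to 7.43 CPM in PND1 saline libraries. Oprl1, the nociceptin receptor, fell by 0.52 (log2 fold change -0.52, SE 0.032), with 61.9 to 72.8 CPM in PND14 saline libraries and 87.3 to 102 CPM in PND1 saline libraries. Gene by gene, the nociceptin receptor fell and its ligand's precursor did not pass the test, while the precursors and receptors of the classical opioid peptides were all higher. With 84.9% of all genes passing, these calls are described only, and no difference between the nociceptin and classical genes was tested.

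Of the 6 peptidases known to degrade opioid peptides, 2 rose, 3 fell and 1 did not pass the test, with a median log2 fold change of -0.19, against the same shares over all genes. Mme (neprilysin) rose by 0.88 (SE 0.050), while Ece2 (endothelin converting enzyme 2) had a log2 fold change of -0.82 (SE 0.042) and Ace (angiotensin converting enzyme) of -0.51 (SE 0.057). Neprilysin stood at 19.8 ± 1.06 CPM in PND14 saline libraries and 10.8 ± 0.840 CPM in PND1 saline libraries.

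**Figure D3:**
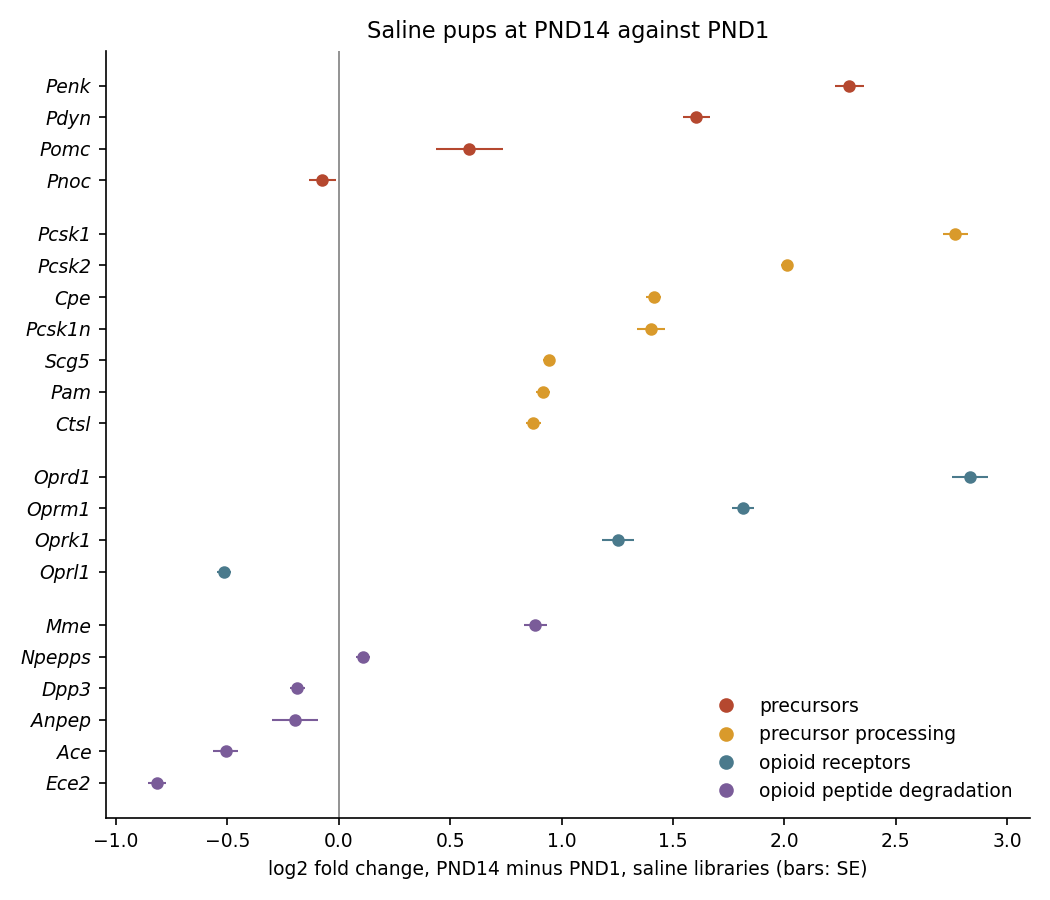
Log2 fold change, PND14 minus PND1, in saline libraries for the precursors, the processing enzymes, the opioid receptors and the degrading peptidases. Points are edgeR estimates and bars their standard errors. All 7 processing genes lie to the right of 0, the nociceptin receptor Oprl1 lies to the left, and the peptidases lie on both sides.

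In edgeR with all libraries, morphine moved none of the 4 precursors past the threshold in any window, with gender labels joined or apart, while Pdyn in PND1 pups labelled male passed it in DESeq2 and in 3 of the fits that left out a library. This comparison asks whether exposure and the first hours after it changed the level of the pup's own opioid transcripts. At PND1, 16.8% of genes passed the test with genders joined (3653 of 21714), 7.39% as higher and 9.43% as lower. Other genes thus differed between morphine and saline libraries there. Without the PND1 libraries over 50 CPM of hindbrain markers 2031 of 21919 passed, and the cause of these differences was not tested. Penk had 15.6, 21.8 and 31.8 CPM in morphine libraries, against 15.2, 20.4 and 27.2 CPM in saline libraries (log2 fold change 0.046, 95% confidence interval -0.15 to 0.24, adjusted p = 0.784). Pdyn had 10.8, 12.5 and 16.3 CPM in morphine libraries, against 7.81, 11.97 and 14.7 CPM in saline libraries (0.12, -0.051 to 0.28, adjusted p = 0.348). The groups overlapped over most of their range for both genes.

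Pomc had 0.589, 0.900 and 1.34 CPM in PND1 morphine libraries, against 0.713, 1.13 and 1.75 CPM in PND1 saline libraries. Its 3 lowest PND1 libraries were all of morphine pups. The log2 fold change was -0.33 (SE 0.16, 95% confidence interval -0.65 to -0.0038, adjusted p = 0.157), so the interval alone left 0 out and the adjusted test did not. Each PND1 morphine library held 15 to 33 Pomc counts. Pnoc had 12.9, 14.5 and 18.0 CPM in PND1 morphine libraries, against 10.1, 13.5 and 15.1 CPM in saline libraries (0.15, SE 0.064, adjusted p = 0.103), with 3 of 10 morphine libraries above all saline libraries.

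At PND14, 1.69% of genes passed the test (332 of 19636), 0.626% as higher and 1.06% as lower. Penk had 85.1, 98.8 and 124 CPM in morphine libraries, against 79.4, 104 and 119.6 CPM in saline libraries (-0.030, 95% confidence interval -0.15 to 0.091, adjusted p = 0.849). Pdyn had 32.1, 35.5 and 42.7 CPM in morphine libraries, against 28.7, 35.7 and 41.8 CPM in saline libraries (0.042, -0.055 to 0.14, adjusted p = 0.707). These are the narrowest intervals of the window, and they leave out a change of the size seen with age. Pomc had 1.17, 2.03 and 3.79 CPM in morphine libraries, against 0.918, 1.72 and 3.03 CPM in saline libraries (0.17, -0.18 to 0.52, adjusted p = 0.661). Pnoc had 10.1, 13.6 and 17.3 CPM in morphine libraries, against 9.87, 12.4 and 14.8 CPM in saline libraries (0.16, 0.015 to 0.31, adjusted p = 0.255), with 5 of 12 morphine libraries above all saline libraries.

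At 3-Tri, 0% of genes passed the test with genders joined (0 of 19730 by edgeR and 0 by DESeq2, with 963 at an unadjusted p under 0.05). Penk had 88.7, 97.8 and 107 CPM in morphine libraries, against 96.3, 102 and 109 CPM in saline libraries (-0.065, SE 0.030, 95% confidence interval -0.13 to -0.0045, adjusted p = 0.970). Of the 12 morphine libraries 5 lay under all saline libraries, a fitted fold of 0.956 that did not pass the adjusted test. Pdyn had 33.0, 36.4 and 40.9 CPM in morphine libraries, against 31.2, 36.5 and 42.6 CPM in saline libraries (-0.031, adjusted p = 0.979). Pomc had 1.13, 1.86 and 2.65 CPM in morphine libraries, against 0.969, 1.86 and 2.32 CPM in saline libraries (0.14, adjusted p = 0.970). Pnoc had 12.02, 12.95 and 14.6 CPM in morphine libraries, against 12.4, 14.2 and 21.2 CPM in saline libraries (-0.11, adjusted p = 0.970), the highest value coming from the shallowest library of the series.

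**Figure D4:**
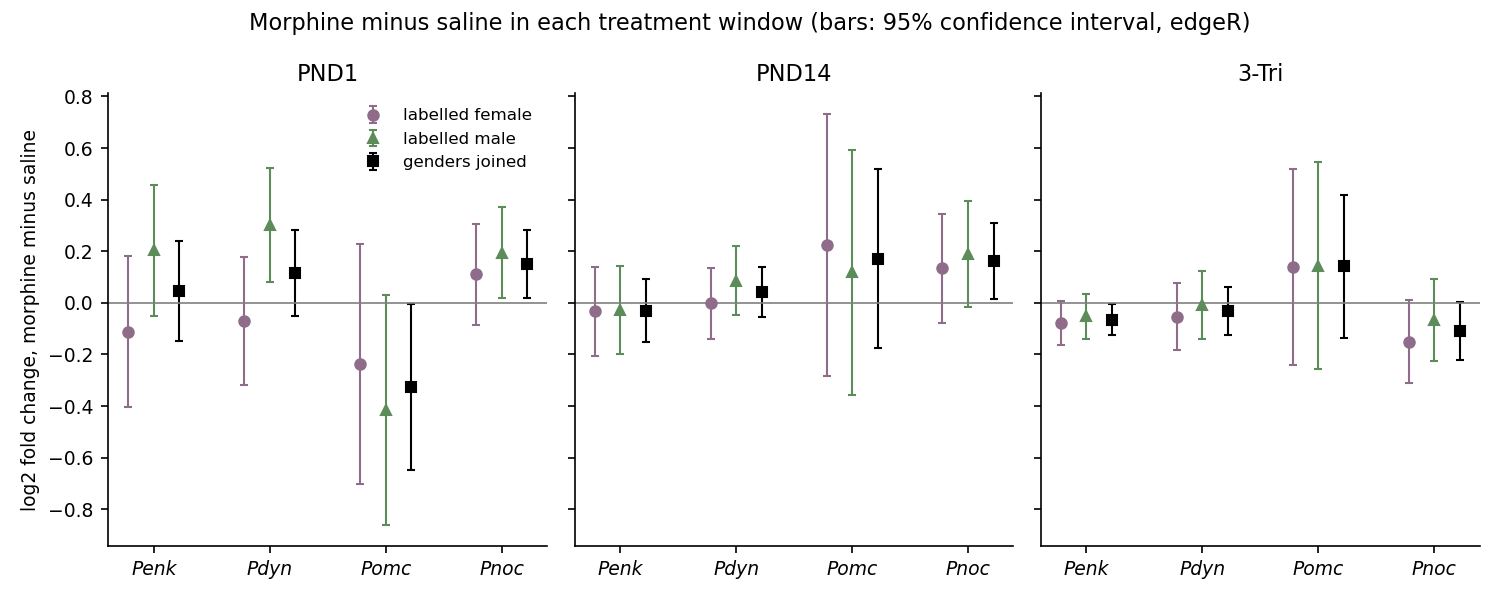
Log2 fold change, morphine minus saline, for each precursor in each treatment window, by gender label and with the labels joined. Bars are 95% confidence intervals derived from edgeR's estimates and F values, without adjustment over genes. Pomc has the widest intervals in every window, Penk at 3-Tri the narrowest, and no point passed the adjusted threshold.

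By gender label, the value nearest the threshold was Pdyn in PND1 pups labelled male. It had 10.8, 13.6 and 16.3 CPM in the 6 morphine libraries, against 7.81, 10.7 and 13.7 CPM in the 7 saline libraries. The log2 fold change was 0.30 (SE 0.11, edgeR adjusted p = 0.0589), where 14.4% of genes passed the test, 6.31% as higher and 8.08% as lower. DESeq2 gave an adjusted p of 0.0392, and leaving out morphine male replicate 6, saline male replicate 9 or saline male replicate 13 gave 0.0333, 0.0492 and 0.0228. The other alternatives did not pass: without the libraries whose sex genes go against the label the estimate was 0.22 (adjusted p = 0.216), without the PND1 libraries rich in hindbrain markers 0.22 (adjusted p = 0.526), and with a replicate block 0.19 (adjusted p = 0.172). The fit without the hindbrain-rich libraries kept only replicates 6 and 7 of the morphine libraries labelled male. Leaving out other single libraries gave an adjusted p of up to 0.153. In PND1 pups labelled female the Pdyn estimate was -0.070 (SE 0.12), from 13.2, 12.2, 11.3 and 11.6 CPM in the 4 morphine libraries, against 10.98, 13.1 and 14.7 CPM in the 7 saline libraries. The difference between the labels, male minus female, was 0.37 (SE 0.16, adjusted p = 0.871). In the male minus female comparisons 0% of genes passed in any window (0 of 21714, 0 of 19636 and 0 of 19730 by edgeR and 0 by DESeq2 at PND1, PND14 and 3-Tri, with 1187, 676 and 457 at an unadjusted p under 0.05), and for the 4 precursors the adjusted p was 0.871 or more.

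Pnoc alone passed the test of whether the response to morphine differed among the 3 windows, and only just (adjusted p = 0.0492, F test of 2 contrasts in 72 libraries, edgeR), where 13% of genes passed. Its log2 fold changes were 0.15 at PND1 and 0.16 at PND14, against -0.11 at 3-Tri. The call is fragile: leaving out 1 library at a time gave adjusted p of 0.0317 to 0.0835 and ended the call for 46 of the 72 libraries, 15 of PND1, 15 of PND14 and 16 of 3-Tri. It also ended without the libraries whose sex genes go against the label (0.106), without the PND1 libraries rich in hindbrain markers (0.0980) and without the filter on low counts (0.0922). Penk, Pdyn and Pomc had adjusted p of 0.718, 0.493 and 0.198 in the same test.

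Among the receptor, processing and peptidase lists, morphine moved a few genes at PND1 with genders joined and none at PND14 or 3-Tri. Over all genes 16.8% passed the test there, 7.39% as higher and 9.43% as lower, so the counts of 2 of 7, 1 of 4 and 1 of 6 that follow are described only. Of the 7 precursor processing genes 2 rose at PND1, Pcsk2 by 0.15 (SE 0.027, edgeR adjusted p = 0.0006) and Pam, which amidates peptides, by 0.098 (SE 0.029, adjusted p = 0.0219). Pcsk2 stood at 71.0 to 80.2 CPM in PND1 morphine libraries and 63.3 to 72.1 CPM in PND1 saline libraries. Of the 4 receptors Oprl1 fell (log2 fold change -0.15, SE 0.032, adjusted p = 0.00305), with 80.1 to 93.7 CPM in PND1 morphine libraries and 87.3 to 102 CPM in PND1 saline libraries. Of the 6 peptidases Dpp3 fell (-0.12, SE 0.035, adjusted p = 0.0195). In PND1 pups labelled male alone, where 14.4% of all genes passed, Oprk1 rose by 0.39 (SE 0.11, adjusted p = 0.0161), Pcsk1 by 0.39 (SE 0.11, adjusted p = 0.0202), Pcsk2 by 0.16 (SE 0.036, adjusted p = 0.00442) and Scg5, the convertase chaperone, by 0.13 (SE 0.036, adjusted p = 0.0157), and Dpp3 fell (-0.16, SE 0.046, adjusted p = 0.0184). The hindbrain marker sum had a median of 44.2 CPM in PND1 morphine and 24.1 CPM in PND1 saline libraries, and its part in these calls was not tested.

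Penk was uneven among PND1 libraries of the same drug, and it ran with several marker lists, most closely with hindbrain and spinal cord markers. Over the 10 PND1 morphine libraries, log2 Penk and the log2 sum of these markers had a Pearson correlation of 0.80, and over the 14 PND1 saline libraries of 0.86, as descriptions over libraries that differ in depth. For Pomc the correlations were -0.47 in morphine and -0.46 in saline libraries, for Pdyn 0.19 in morphine and 0.16 in saline libraries, and for Pnoc -0.0020 in morphine and 0.26 in saline libraries. Penk held 24.6 ± 3.97 CPM in the 10 PND1 libraries whose marker sum was over 50 CPM and 19.6 ± 3.30 CPM in the 14 others (SD). Over the 24 PND1 libraries, as deviations from group means, log2 Penk correlated at 0.77 with the hindbrain list, 0.50 with the pituitary list, 0.41 with the cerebellar list, -0.67 with the cortical neuron list, -0.60 with the GABA interneuron list, -0.39 with the striatal list and -0.26 with the hypothalamic list, and the part of each in the Penk values was not tested. The hindbrain sums were 28.4 to 157 CPM in morphine and 2.87 to 70.2 CPM in saline libraries labelled male, and 4.07 to 56.4 CPM in morphine and 0.773 to 87.3 CPM in saline libraries labelled female. Without the 10 libraries over 50 CPM the Penk estimate in PND1 pups labelled male was -0.060 (edgeR adjusted p = 0.851), against 0.20 (adjusted p = 0.277) with them. That cut was chosen after seeing the data. Of the morphine libraries labelled male it kept only replicates 6 and 7, at 32.0 and 28.4 CPM of these markers, so the estimate of -0.060 rests on few libraries. Without the 10 libraries the rise of Penk from PND1 was 2.40 on the log2 scale for PND14 saline pups, against 2.29 with them. Only 5 of the 10 were saline libraries, and the PND1 saline libraries kept still held up to 43.5 CPM of these markers. The part of the markers in that rise was not tested.

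**Figure D5:**
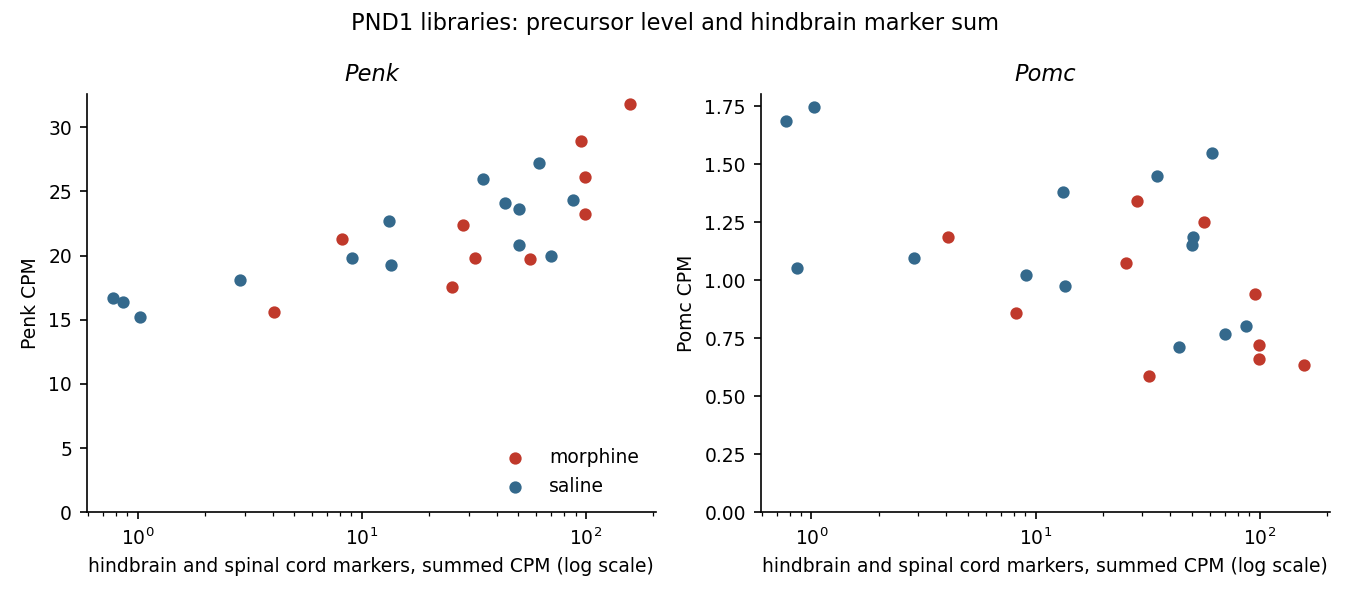
Penk and Pomc CPM in the 24 PND1 libraries against the summed CPM of hindbrain and spinal cord markers on a log scale, morphine in red and saline in blue. Each point is a library. Penk runs upwards with the marker sum in both drugs, with the highest Penk value of 31.8 CPM at the highest sum of 157 CPM, and Pomc runs weakly downwards.

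For Penk and Pdyn the libraries lay closer together after PND1. The coefficient of variation of Penk was 19.8% over the 24 PND1, 11.3% over the 24 PND14 and 5.08% over the 24 3-Tri libraries. For Pdyn it was 15.5%, 8.34% and 8.70% in the same order, for Pnoc 11.9%, 13.96% and 13.5%, and for Pomc 30.8%, 32.9% and 23.2%. Pomc, with the fewest counts, had the widest spread in each window.

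The genes whose libraries moved most like each precursor, as deviations from the 12 group means over 72 libraries, differed between the members. The 18233 genes with a mean of at least 1 CPM were compared, and the points share libraries and depth. Penk went with Aldoc (r = 0.80), Lynx1 (0.77), Ckmt1 (0.72), Lgi3 (0.72) and Ramp1 (0.72), and for Aldoc the correlation was 0.93 within PND1, 0.64 within PND14 and 0.40 within 3-Tri. Lynx1, Ckmt1, Lgi3 and Ramp1 were at 0.89, 0.90, 0.89 and 0.85 within PND1. Within 3-Tri they were at 0.52, 0.24, 0.13 and 0.10, so the likeness of the last 3 was weak there. Pdyn went with Ptprn (0.71), Chgb (0.68), Gm28294 (0.67), Kcnc4 (0.65) and Slc27a4 (0.64). Ptprn and Chgb encode proteins of dense-core vesicles, which store neuropeptides. Pomc went with Uqcr11 (0.60), AC122861.4 (0.60), Angptl6 (0.60), Cox5b (0.58) and Romo1 (0.58), and Pnoc with Ndufa11 (0.62), Ghdc (0.62), Gm15756 (0.62), Bcap31 (0.59) and Irx3os (0.59). Uqcr11, Cox5b and Ndufa11 are subunits of mitochondrial respiratory complexes.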

How the data were processed

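The authors trimmed paired reads with Trim Galore 0.6.6, aligned them to mm10 with HISAT2 2.2.1, removed duplicates with Picard and counted reads per GENCODE gene with featureCounts 2.0.1. The deposited table holds raw counts of 55401 genes in 72 libraries, and its values are whole reads. The deposited comparison tables hold the authors' fold changes and p-values, which were not used, and gene names, which were. The members and lists were chosen with earlier results of these data known. Counts were fitted with edgeR 4.0.16 in R 4.3.3 (filterByExpr with a minimum count of 10, TMM, glmQLFit, glmQLFTest, Benjamini-Hochberg over all genes tested), with 4 groups of a window in 1 fit for drug contrasts and 12 groups in 1 fit of 72 libraries for age contrasts and the difference among windows. Contrasts joined the gender labels as the mean of both. CPM come from the 72-library fit, in which 22010 genes passed the filter. Marker lists covered striatal, hypothalamic, pituitary, GABA interneuron, hindbrain and spinal cord, cerebellar and cortical neurons. Named genes were all members, the sex genes, up to 3 genes per pathway list by smallest p with age, list genes called with morphine (up to 3 per list), and the 5 genes most like each member. The code was tested on simulated data. Alternatives were DESeq2 1.42.0 and its size factors, no filter, a replicate block, left-out libraries, a GC content and length correction, and limma 3.58.1 with the sample number as a random effect. Protein sequences were not used here.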

Additional observations from a re-analysis of the deposited data

Results flagged for a closer look

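In 48 groups of one gene, 5 libraries stood apart from the others of their group by Dixon's test, where chance gives about 1 in 20. Pnoc was 21.2 CPM in 3-Tri saline male replicate 1, against 12.9 to 14.7 CPM in the other 5, from 57 counts in the shallowest library (3113919 counts). Pnoc was 13.9 CPM in 3-Tri morphine female replicate 10, against 12.02 to 12.6 CPM. Pomc was 2.61 CPM in 3-Tri morphine female replicate 11, against 1.76 to 2.08 CPM, and 0.918 CPM in PND14 saline female replicate 6, from 7 counts, against 1.57 to 1.85 CPM. Penk was 119.6 CPM in PND14 saline male replicate 7, against 99.4 to 106.9 CPM.

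Pnoc passed the F test of whether its response to morphine differed among PND1, PND14 and 3-Tri over 72 libraries (edgeR adjusted p = 0.0492). Its log2 fold changes were 0.15, 0.16 and -0.11. The call is fragile, since leaving out 1 library at a time ended it for 46 of the 72 libraries. The 3-Tri estimate includes the saline library at 21.2 CPM flagged above.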

How the results depend on the processing

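The rise of Penk, Pdyn and Pomc with age kept its direction and its call under each alternative run. For PND14 minus PND1 saline pups the log2 fold change ran from 2.199 to 2.40 for Penk, 1.57 to 1.65 for Pdyn and 0.45 to 0.62 for Pomc. Pnoc crossed the threshold in 2 alternatives, with a log2 fold change of -0.13 (adjusted p = 0.0415) for PND14 minus PND1 under the GC content and gene length correction and 0.13 (adjusted p = 0.0423) for 3-Tri minus PND1 with a replicate block. The adjusted p of Pnoc among windows was 0.0922 with no filter on low counts, 0.106 without libraries against the labelled gender and 0.0980 without PND1 libraries over 50 CPM of hindbrain markers (chosen after seeing the data), and 0.0317 to 0.0835 without 1 library. For values that changed, the cause was not tested.

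Replicate numbers were not taken as pairs in the main fits. The correlation of same-numbered pairs ran from -0.27 to 0.23 at PND1, -0.25 to 0.11 at PND14 and -0.11 to 0.36 at 3-Tri. It was over 0.1 in 3 of 7, 3 of 12 and 7 of 12 pairs. Pairs with different numbers were not compared, so these values cannot decide whether the numbers paired the samples. With the block, the genes called with morphine numbered 1 at PND1 labelled female, 1828 at PND1 labelled male, 31 at PND14 labelled male and 98 at PND14 joined, 1 gene was called between genders at PND1, and Penk at PND1 labelled female was 0.13. Without a filter 1 gene was called at PND1 labelled female. DESeq2 called 138 genes there, 22 at PND14 labelled female, 203 at PND14 labelled male, 657 at PND14 joined and 4 in 3-Tri minus PND14 saline pups. The GC correction gave 1225 at PND1 labelled male, 1947 at PND1 joined and 1653 among windows. Without the hindbrain-rich libraries 13, 546 and 2031 genes were called at PND1 labelled female, labelled male and joined. Among windows, 1696 were called without libraries against the labelled gender. With the sample number as a random effect 644 genes were called at PND14 joined, and with counts summed over it 9.

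None of the results whose estimate turned sign passed the test. Without hindbrain-rich libraries Penk was 0.10 at PND1 labelled female, -0.060 at PND1 labelled male and -0.16 between genders, where Pomc was 0.15 and Pnoc -0.055. Without libraries against the labelled gender Penk was 0.00095 at PND1 labelled female and 0.0073 in 3-Tri minus PND14, Pnoc -0.066 between genders at PND1, and Pomc -0.064 at 3-Tri labelled male, -0.025 at 3-Tri joined, -0.077 between genders at 3-Tri and 0.025 in 3-Tri minus PND14. Pdyn at PND14 labelled female was 0.00034 with DESeq2 size factors and 0.0091 without libraries under 5000000 counts, where Penk between genders was -0.016. DESeq2 gave -0.0020 for Pomc between genders at 3-Tri.

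Leaving out 1 library at a time, counts of called genes ran from 0 to 8 at PND1 labelled female, 1861 to 4944 at PND1 labelled male, 0 to 13, 0 to 120 and 110 to 638 at PND14 labelled female, labelled male and joined, and 0 to 1 between genders at PND14. Log2 fold changes ran from 0.23 to 0.37 for Pdyn at PND1 labelled male. At PND14 they ran from -0.083 to 0.021 for Penk and -0.049 to 0.045 for Pdyn labelled female, from -0.082 to 0.0080 for Penk and -0.041 to 0.29 for Pomc labelled male, and between genders from -0.049 to 0.056 for Penk, -0.27 to 0.064 for Pomc and -0.00079 to 0.12 for Pnoc. At 3-Tri they ran from -0.037 to 0.011 for Pdyn labelled male, and between genders from -0.00059 to 0.050 for Penk and -0.12 to 0.12 for Pomc. For 3-Tri minus PND14 they ran from -0.034 to 0.018 for Penk and -0.095 to 0.036 for Pomc. Pomc counts of 6 to 49 in saline libraries limit its precision, and the lack of litters limits every drug comparison.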
